A study of Mus musculus with 17 samples.

Results

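The 9 genes Saa1, Saa2, Saa3, Orm1, Orm2, Hp, Lbp, Ptx3 and Lrg1 of the acute-phase response were followed in mouse lung after focal irradiation. They are 9 of the 45777 genes of the count table and were taken by their symbols. The set was chosen by name with the counts and the fold changes of these libraries already known, so the values against controls are given as a description, without p-values for the members. The libraries came from lungs of male wild-type C57BL/6 mice, which were 6 weeks old on arrival. The left lung received 65 Gy or 75 Gy in 1 fraction under image guidance, and mice without irradiation served as controls at each of the 2 collection times, 2 and 6 weeks. There were 3 libraries in each of the 6 groups except 65 Gy at 6 weeks, which had 2. The study's methods take the RNA of irradiated mice from the lesions, so irradiation and the piece of lung taken cannot be told apart. Labels do not tie libraries to mice, and p-values therefore measure the spread between these libraries, which may in part be technical.

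Acute-phase proteins are plasma proteins whose level changes within hours to days of injury. Most are made by the liver, where interleukin-6 acts through STAT3 and interleukin-1 and TNF act through NF-kB and C/EBP factors on their promoters. Several are also made locally: in the mouse, Saa3 is the serum amyloid A made mainly outside the liver, for example in macrophages, adipocytes and epithelium, and Ptx3 is a pentraxin of inflamed tissue that the liver hardly makes. Serum amyloid A proteins travel on high-density lipoprotein, orosomucoids (Orm1 to Orm3) are lipid- and drug-binding glycoproteins, haptoglobin (Hp) binds free haemoglobin, LBP hands bacterial lipopolysaccharide to CD14, and LRG1 modifies TGF-beta signalling in endothelial cells.

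The serum amyloid A genes lie together on chromosome 7 in the order Saa3, Saa4, Saa1 and Saa2, and the orosomucoid genes lie together on chromosome 4 in the order Orm1, Orm3 and Orm2. In GRCm38.p6, the build of the alignment, Saa3 spans chr7:46711998-46719615, Saa1 chr7:46740497-46743181 and Saa2 chr7:46751833-46754313. Orm1 lies at chr4:63344556-63348163 and Orm2 at chr4:63362449-63365877. RefSeq promoter windows were at hand for 6 of the 9 members, that is for Saa1, Saa2, Saa3, Orm2, Ptx3 and Lrg1. The 250 bases before the start site are shown for Saa3, Saa1 and Saa2, whose levels after irradiation differed widely, and for Orm2, which was absent from the controls of 2 weeks. They are written 5′ to 3′ on the gene's own strand, and capitals mark matches to 4 motifs searched on both strands. The windows are chr7:46715677-46715926 (minus strand) for Saa3, chr7:46742981-46743230 (minus strand) for Saa1, chr7:46751583-46751832 (plus strand) for Saa2 and chr4:63362199-63362448 (plus strand) for Orm2.
Saa3: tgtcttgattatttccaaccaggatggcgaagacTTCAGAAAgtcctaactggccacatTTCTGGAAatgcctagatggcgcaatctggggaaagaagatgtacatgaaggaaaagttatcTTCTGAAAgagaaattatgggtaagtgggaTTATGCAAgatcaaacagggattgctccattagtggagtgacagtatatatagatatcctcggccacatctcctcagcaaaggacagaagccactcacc
Saa1: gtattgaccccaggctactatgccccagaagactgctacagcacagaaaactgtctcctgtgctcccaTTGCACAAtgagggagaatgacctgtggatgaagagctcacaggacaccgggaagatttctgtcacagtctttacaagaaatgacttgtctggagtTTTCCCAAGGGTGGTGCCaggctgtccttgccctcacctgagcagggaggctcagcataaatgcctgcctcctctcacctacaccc
Saa2: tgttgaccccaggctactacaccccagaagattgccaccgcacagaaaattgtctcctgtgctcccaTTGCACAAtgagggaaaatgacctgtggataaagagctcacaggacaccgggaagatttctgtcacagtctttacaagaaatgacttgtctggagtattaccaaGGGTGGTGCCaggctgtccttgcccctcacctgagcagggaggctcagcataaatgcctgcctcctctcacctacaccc
Orm2: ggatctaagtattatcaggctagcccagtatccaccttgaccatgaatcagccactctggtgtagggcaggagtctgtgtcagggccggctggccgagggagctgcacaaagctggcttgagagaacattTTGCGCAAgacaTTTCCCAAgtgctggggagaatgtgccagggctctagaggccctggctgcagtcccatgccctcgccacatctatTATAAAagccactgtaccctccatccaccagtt

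The motifs were GGG and CC with 5 bases of any kind between them for NF-kB, TTNNGNAA for C/EBP, TTCNNNGAA for STAT and TATAAA for the TATA box. Among 32817 mouse promoter windows of the same length they matched 45.8%, 36.8%, 7.01% and 12.4%, in that order. The C/EBP letters stood in 5 of the 6 members' windows, with 4 matches in Saa3 and none in Lrg1. NF-kB letters were found in Saa1, Saa2 and Lrg1, the STAT letters in none of the 6 windows, and the TATA letters in Orm2 alone. In Saa1 a C/EBP match at bases 86 to 79 before the start adjoins an NF-kB match at bases 78 to 69, without overlap, and Saa2 keeps the NF-kB match but lacks the adjoining C/EBP letters. Over the aligned windows Saa1 and Saa2 were identical at 94.8% of positions, whereas Saa1 and Saa3 were identical at 50.2%. Matches of this kind are letters in a window and do not show binding. The windows of Saa3 and Saa1 lie wholly or in part inside the annotated spans of these genes, so their start sites are not the outermost ones annotated.

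Counts of genes so alike can be shared out wrongly. The mRNAs of Saa1 and Saa2 were 93.9% identical and those of Orm1 and Orm2 91.0%. No stretch of 100 bases, the length of 1 read, was shared between the mRNAs of Saa1, Saa2, Saa3 and Saa4, while Orm1 and Orm2 shared 47 of 676 such stretches (6.95%). How reads with several matches were treated is not given in the sources used here, so the values of Saa1, Saa2, Orm1 and Orm2 are uncertain one by one, and their sums are given beside them. Ptx3 lies within the span of Veph1 and Orm1 overlaps the long non-coding gene LOC115489999, and although the library kit marks strand, whether the counting used it is not given either.

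Total counts ran from 46764569 to 66797879 per library (median 57608149), and levels are in CPM, counts scaled to library size with TMM factors. A filter on low counts kept 22052 genes, all 9 members among them. Saa1, Saa2 and Orm2 passed it only through irradiated libraries. Groups were compared with edgeR's quasi-likelihood test, and genes were called at an adjusted p of 0.05 or less with a log2 fold change of 1 or more in size.

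Most of the set was higher after irradiation, at both doses and both times. At 2 weeks 6 of the 9 members were called higher at 75 Gy and the same number at 65 Gy, Saa1, Saa3, Orm1, Orm2, Ptx3 and Lrg1 in each case. At 6 weeks 75 Gy again gave 6, of the same names, and 65 Gy gave 5, without Ptx3. Among all genes tested the shares called higher were 5.67% and 3.47% at 2 weeks and 7.28% and 4.34% at 6 weeks, for 75 Gy and 65 Gy in turn. No member was called lower in these comparisons, against 2.07%, 0.88%, 3.13% and 0.943% of all genes in the same order (75 Gy and 65 Gy at 2 weeks, then at 6 weeks). These shares are printed for scale only, since the comparisons were known when the genes were chosen. Hp, Lbp and Saa2 were not called by the quasi-likelihood test in any of the 4 comparisons, whereas edgeR's exact test also called Saa2 at 65 Gy and 2 weeks and at 75 Gy and 6 weeks. The median log2 fold change of the members was 3.05 and 2.52 at 2 weeks and 3.15 and 2.57 at 6 weeks for 75 Gy and 65 Gy, beside medians over all genes of 0.00084, -0.0085, 0.040 and 0.0081. With genes absent from controls set at their lower bounds, these medians became 2.37, 2.52, 2.83 and 2.57. Without bounds, both medians of 2 weeks were the values of Saa1. Because Saa1, Saa2 and Orm2 were tested only through their irradiated libraries, the medians and the counts of called members are in part set by the filter. They are not read as a trait of the set.

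**Figure D1:**
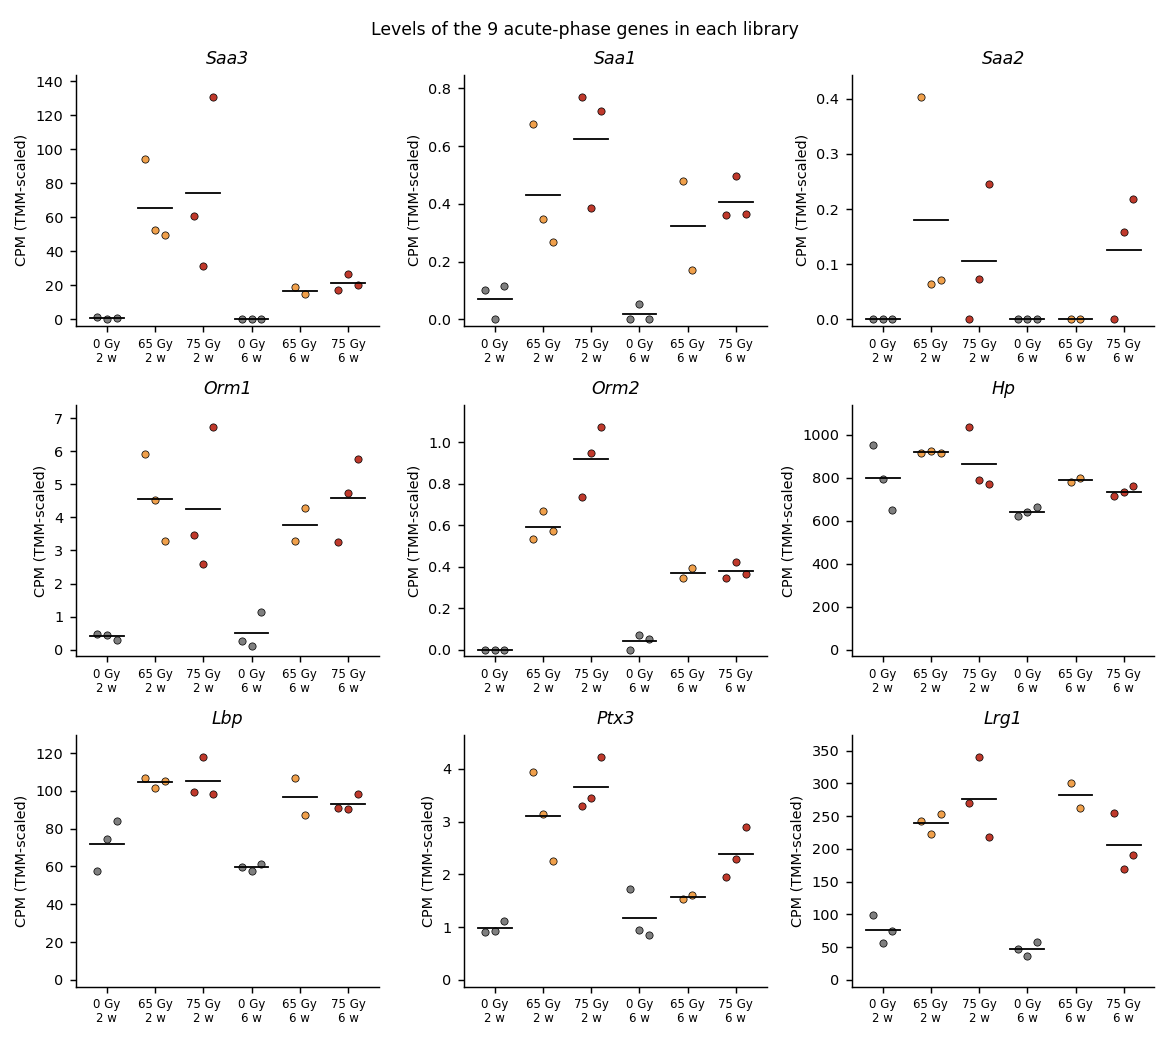
Level of each of the 9 genes in every library (points, CPM scaled with TMM factors, axes starting at 0) in the 6 groups of dose and time, with horizontal lines at the group means. Saa3, Orm1, Orm2 and Lrg1 do not overlap between controls and irradiated libraries of the same time, whereas Hp overlaps at 2 weeks.

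Libraries of the compared groups did not overlap, with every irradiated library higher, for 7 members at 75 Gy and 8 at 65 Gy at 2 weeks, where 15.5% and 15.9% of all genes did so. The numbers were 8 at 75 Gy and 7 at 65 Gy at 6 weeks, against 29.4% and 28.2% of all genes. Hp was among the overlapping genes at 2 weeks at both doses, as was Saa2 at 75 Gy. At 6 weeks Saa2 overlapped at both doses and Ptx3 at 65 Gy.

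Saa3, the serum amyloid A of extrahepatic tissue, went from barely detected to rank 3 among the members per length at 2 weeks. In controls of 2 weeks it stood at 1.42, 0.236 and 0.725 CPM, or 70, 11 and 38 counts. After 65 Gy the 3 libraries held 94.4, 52.4 and 49.7 CPM, and after 75 Gy they held 60.7, 31.1 and 131 CPM. The lowest irradiated library of 2 weeks was thus above the highest control, although the 75 Gy libraries differed among themselves by 4.20-fold. At 6 weeks controls were at 0.276, 0.285 and 0.279 CPM, the 65 Gy libraries at 18.8 and 14.9 CPM and the 75 Gy libraries at 17.3, 26.9 and 20.0 CPM. Every irradiated library of 6 weeks lay below every irradiated library of 2 weeks at the same dose, and the controls of the 2 times overlapped. The log2 fold change was 6.53 (SE 0.58) for 75 Gy and 6.35 (SE 0.58) for 65 Gy at 2 weeks, or 92.7-fold and 81.8-fold. At 6 weeks it was 6.24 (SE 0.62) and 5.90 (SE 0.64), or 75.8-fold and 59.7-fold. The size at 2 weeks depended on single libraries: without control 3126 it was 7.24 for 75 Gy and 7.06 for 65 Gy, and without the irradiated library 3134 it was 5.84 for 75 Gy.

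Saa1 and Saa2, the serum amyloid A genes of the hepatic response, were close to the limit of detection even after irradiation. Saa1 stood at 0.101, 0 and 0.114 CPM in controls of 2 weeks, at 0.678, 0.349 and 0.267 CPM after 65 Gy and at 0.770, 0.384 and 0.721 CPM after 75 Gy. At 6 weeks its controls held 0, 0.0535 and 0 CPM, the 65 Gy libraries 0.478 and 0.171 CPM and the 75 Gy libraries 0.361, 0.495 and 0.365 CPM. Irradiated libraries were above all controls at both times, with at most 44 counts in any library. Its log2 fold change at 2 weeks was 3.05 (SE 0.76) for 75 Gy and 2.52 (SE 0.77) for 65 Gy. The controls of 6 weeks held 3 Saa1 counts in all, and the ratio to them was 23.7 for 75 Gy (95% counting interval 7.79 to 118) and 19.1 for 65 Gy (6.07 to 96.5), intervals that cover counting error only. The calls of Saa1 at 65 Gy rested on single libraries. At 2 weeks the call was lost whichever of the 6 libraries compared was left out, with log2 fold changes from 1.98 to 3.01, and also without 3138, 3141, 3142 or 3143, which entered only the shared estimate of spread (2.52 in each case). At 6 weeks it was lost without control 3135 (3.51), without control 3137 (3.55) and without the irradiated library 3138 (3.16). The 75 Gy calls of Saa1 were kept whichever library was left out, and the one at 2 weeks was lost when only the groups compared entered the fit.

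For Saa2 all 6 control libraries and both 65 Gy libraries of 6 weeks were at 0 counts. The 65 Gy libraries of 2 weeks held 25, 4 and 4 counts, so that library 3129 gave most of the reads of that group. At 75 Gy there were 0, 5 and 14 counts at 2 weeks and 0, 9 and 12 counts at 6 weeks. Against a floor of 3 counts over the control group, Saa2 was at least 9.01-fold higher after 65 Gy at 2 weeks, at least 5.17-fold after 75 Gy at 2 weeks and at least 7.11-fold after 75 Gy at 6 weeks. No fold is given for 65 Gy at 6 weeks. Without library 3141, which was at 0 counts, Saa2 was called at 75 Gy and 6 weeks. The sum of Saa1 and Saa2 had log2 fold changes of 3.28 and 3.02 at 2 weeks and 4.78 and 4.08 at 6 weeks for 75 Gy and 65 Gy. Saa4, a constitutive serum amyloid A of the liver and no member of the set, was at 0 counts in all controls and at 0.197 to 0.721 CPM in irradiated libraries. It was at least 27.8-fold and 26.8-fold higher at 2 weeks and at least 15.6-fold and 20.6-fold higher at 6 weeks, for 75 Gy and 65 Gy.

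Per kilobase of mRNA, nearly all serum amyloid A message came from Saa3. It made up 98.7% on average (98.4% to 99.2%) of the summed level of the 4 genes after 75 Gy and 99.0% (98.8% to 99.0%) after 65 Gy at 2 weeks. At 6 weeks its share was 97.5% (97.0% to 97.8%) after 75 Gy and 97.8% (97.4% to 98.2%) after 65 Gy. In controls, where counts were few, Saa3 already made up 93.8% (87.4% to 100%) at 2 weeks and 95.1% (85.4% to 100%) at 6 weeks. The summed level per kilobase was 0.424 to 2.73 CPM in controls of 2 weeks, 90.5 to 172 after 65 Gy and 57.0 to 238 after 75 Gy, and at 6 weeks 0.497 to 0.602, 27.4 to 34.7 and 31.9 to 49.6. Among the tested genes next to the cluster, Saal1 lies 1308 bases from Saa3 and Hps5 6153 bases from Saa2. Both are mentioned here only because of their place. Their log2 fold changes lay between 0.018 and 0.16 for Saal1 and between -0.11 and 0.12 for Hps5, and neither was called in the 4 comparisons.

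The orosomucoids are acute-phase glycoproteins that carry basic drugs and small lipids. Orm1 stood at 0.487, 0.450 and 0.286 CPM in controls of 2 weeks, at 5.91, 4.52 and 3.28 CPM after 65 Gy and at 3.47, 2.60 and 6.74 CPM after 75 Gy. Controls of 6 weeks held 0.276, 0.125 and 1.15 CPM, the 65 Gy libraries 3.28 and 4.28 CPM and the 75 Gy libraries 3.26, 4.74 and 5.77 CPM. No irradiated library overlapped a control at either time, and the 4 irradiated groups overlapped one another. The log2 fold changes were 3.38 (SE 0.59) for 75 Gy and 3.49 (SE 0.59) for 65 Gy at 2 weeks and 3.15 (SE 0.57) and 2.87 (SE 0.60) at 6 weeks. Without control 3137, the highest of its group, the values of Orm1 at 6 weeks were 4.49 and 4.21.

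Orm2 was not counted at all in the controls of 2 weeks, and reached 33, 42 and 32 counts after 65 Gy and 42, 64 and 61 counts after 75 Gy. In CPM these were 0.533, 0.666 and 0.570, and 0.735, 0.946 and 1.07. The doses did not overlap for this gene at 2 weeks, yet their difference (log2 0.64, SE 0.39) did not pass the test (edgeR adjusted p = 0.709). Against the floor of 3 counts over the controls, Orm2 was at least 45.5-fold higher after 75 Gy and at least 29.2-fold higher after 65 Gy at 2 weeks. At 6 weeks controls held 0, 4 and 3 counts, or 0, 0.0713 and 0.0524 CPM, against 0.346 and 0.393 CPM after 65 Gy and 0.344, 0.425 and 0.365 CPM after 75 Gy. The log2 fold change was then 3.16 (SE 0.54) for 75 Gy and 3.13 (SE 0.58) for 65 Gy. Without control 3135 these were 2.57 and 2.54, and without control 3136 they were 3.79 and 3.75.

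Orm3, the gene between them and no member, did not share this pattern, and its irradiated libraries lay within the range of the controls at 2 weeks (0.163 to 0.539 against 0.0642 to 0.771 CPM). Its log2 fold changes ran from -0.87 to -0.28, and none was called. As a share of the summed level per kilobase of the 3 genes, Orm3 held 45.5% on average in controls of 2 weeks and 55.7% in controls of 6 weeks, and 4.77% to 9.30% on average in the irradiated groups. Orm1, Orm2 and Orm3 summed had log2 fold changes of 2.68 and 2.70 at 2 weeks and 2.28 and 2.04 at 6 weeks for 75 Gy and 65 Gy.

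**Figure D2:**
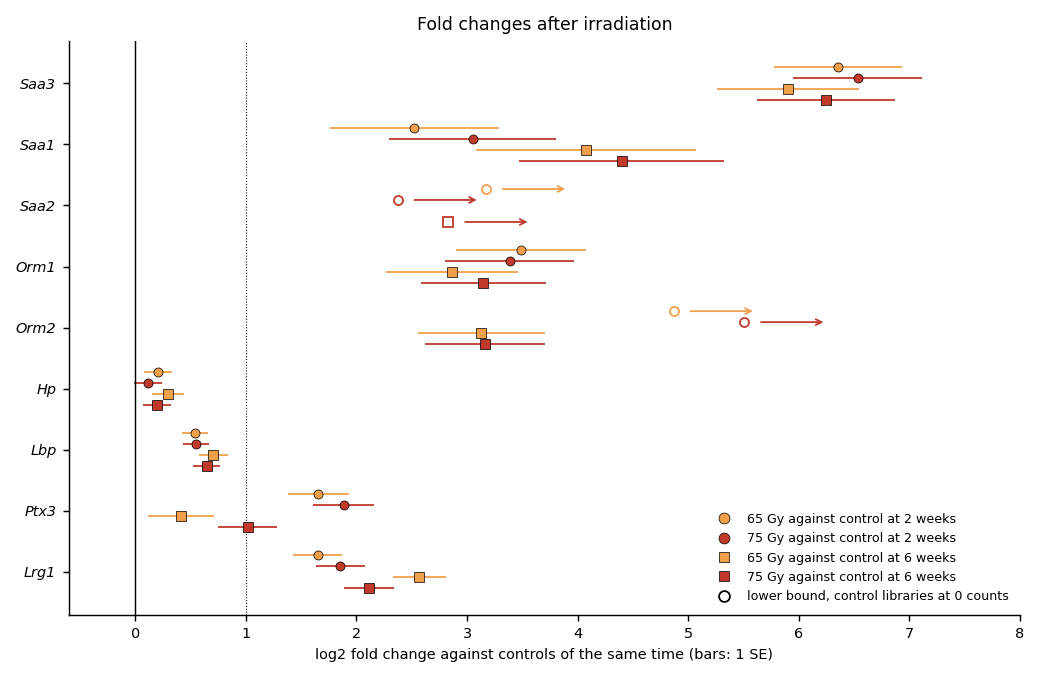
Log2 fold change of each gene against controls of the same time for 65 Gy (orange) and 75 Gy (red) at 2 weeks (circles) and 6 weeks (squares), with bars of 1 SE. Open symbols with arrows are lower bounds for genes at 0 counts in all controls, and the dotted line is the call limit of 1; Saa3 lies near 6 in all 4 comparisons and Hp at no more than 0.30.

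Hp and Lbp were abundant in lung without irradiation and differed little after it. Haptoglobin captures haemoglobin for uptake through CD163, and its mRNA stood at 951, 795 and 649 CPM in controls of 2 weeks. After 65 Gy it was at 914, 927 and 916 CPM and after 75 Gy at 1036, 789 and 773 CPM, inside or just above the range of the controls. At 6 weeks controls held 622, 640 and 666 CPM, the 65 Gy libraries 782 and 797 CPM and the 75 Gy libraries 715, 731 and 759 CPM. The groups of 6 weeks thus did not overlap, with log2 fold changes of only 0.19 (SE 0.13) for 75 Gy and 0.30 (SE 0.14) for 65 Gy. At 2 weeks these were 0.12 (SE 0.13) and 0.20 (SE 0.13).

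Lbp, which presents lipopolysaccharide to CD14 and TLR4, stood at 57.5, 74.5 and 83.9 CPM in controls of 2 weeks, at 107, 102 and 105 CPM after 65 Gy and at 99.2, 118 and 98.5 CPM after 75 Gy. At 6 weeks controls held 59.7, 57.7 and 61.3 CPM, the 65 Gy libraries 107 and 87.2 CPM and the 75 Gy libraries 90.7, 90.4 and 98.1 CPM. All irradiated libraries were above all controls of their time. Log2 fold changes were 0.55 and 0.54 (SE 0.12 each) at 2 weeks and 0.64 (SE 0.12) and 0.70 (SE 0.13) at 6 weeks for 75 Gy and 65 Gy. Lbp passed the limit on the adjusted p in each of these comparisons and the limit on fold change in none, so that without the latter the number of members called was 7, 7, 7 and 6.

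Ptx3, a long pentraxin that binds microbes and complement C1q and is made in inflamed tissue, was called at both doses at 2 weeks and at 75 Gy alone at 6 weeks. It stood at 0.913, 0.921 and 1.13 CPM in controls of 2 weeks, at 3.94, 3.14 and 2.26 CPM after 65 Gy and at 3.29, 3.44 and 4.22 CPM after 75 Gy. At 6 weeks controls held 1.72, 0.945 and 0.855 CPM, the 65 Gy libraries 1.53 and 1.60 CPM and the 75 Gy libraries 1.95, 2.28 and 2.90 CPM. The 65 Gy libraries of 6 weeks lay below the highest control, and those of 75 Gy above it. The log2 fold change was 1.88 (SE 0.27) for 75 Gy and 1.66 (SE 0.27) for 65 Gy at 2 weeks, and 1.01 (SE 0.27) and 0.42 (SE 0.30) at 6 weeks. Veph1, whose span holds Ptx3, had log2 fold changes of 0.60 and 0.75 at 2 weeks and 0.047 and 0.34 at 6 weeks for 75 Gy and 65 Gy and was not called. The call at 75 Gy and 6 weeks sat at the limit on fold change and was lost without control 3136 (0.88), without control 3137 (0.83) or without the irradiated library 3143 (0.86).

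Lrg1, a secreted leucine-rich glycoprotein, was the most abundant of the called members. Its levels were 98.5, 55.7 and 74.4 CPM in controls of 2 weeks, 242, 222 and 254 CPM after 65 Gy and 270, 340 and 218 CPM after 75 Gy. At 6 weeks controls held 46.98, 36.9 and 58.4 CPM, the 65 Gy libraries 300.0 and 263 CPM and the 75 Gy libraries 255, 169.8 and 191 CPM. The lowest irradiated library was above the highest control at both times. Log2 fold changes were 1.85 (SE 0.22) for 75 Gy and 1.65 (SE 0.22) for 65 Gy at 2 weeks and 2.11 (SE 0.23) and 2.57 (SE 0.24) at 6 weeks. At 6 weeks the mean was 282 CPM (SD 26.2, n = 2) for 65 Gy and 205 CPM (SD 44.5, n = 3) for 75 Gy.

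The members kept nearly the same order per length in each group. Per kilobase Hp led everywhere, with means from 478 CPM in controls of 6 weeks to 683 CPM after 65 Gy at 2 weeks. Lrg1 had rank 2 in all 6 groups, from 33.7 CPM in controls of 6 weeks to 199.9 CPM after 65 Gy at 6 weeks. Saa3 changed place most. It had rank 4 at 1.43 CPM per kilobase in controls of 2 weeks and rank 3 at 134 CPM after 75 Gy and 118 CPM after 65 Gy, above Lbp at 41.7 and 41.4 CPM. In controls of 6 weeks it had rank 6 at 0.505 CPM, behind Orm1 and Ptx3, and after irradiation rank 3 at 38.5 CPM for 75 Gy and rank 4 at 30.4 CPM for 65 Gy. Summed over the 9 genes, the level per kilobase was 571 to 804 CPM in controls of 2 weeks and 938 to 1119 CPM after 75 Gy, of which Saa3 made up 0.0642% to 0.319% and 5.98% to 23.2%.

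**Figure D3:**
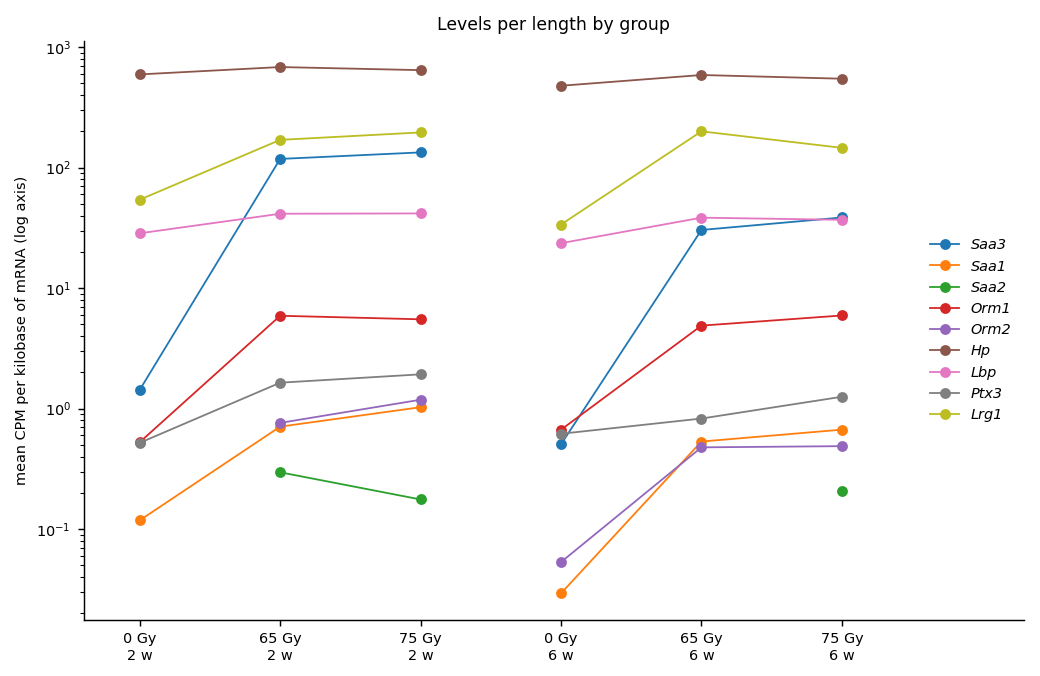
Mean level of each gene per kilobase of mRNA (CPM per kilobase, log axis) in the 6 groups of dose and time, joined within each time. Groups in which a gene had no counts are left out, as for Saa2 in all controls, and Saa3 crosses from about 1 to above 100 at 2 weeks.

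Whether the 2 doses differed was tested directly rather than by comparing calls that share controls. With edgeR, 0 of the 9 members were called between 75 Gy and 65 Gy at 2 weeks and 0 at 6 weeks, no member had an unadjusted p under 0.05, and DESeq2 and edgeR's exact test called 0 as well. Over all genes the test called 0% at either time, although 1570 and 1431 genes had an unadjusted p under 0.05, and DESeq2 called 7 and 14 and the exact test 6 and 11. For Saa3 the difference on the log2 scale was 0.18 (95% interval -0.74 to 1.096) at 2 weeks and 0.34 (-0.71 to 1.39) at 6 weeks, with adjusted p of 0.930 and 0.879 in edgeR. Intervals were narrower for the abundant genes, at -0.25 to 0.26 for Lbp and -0.36 to 0.19 for Hp at 2 weeks. At 6 weeks Lrg1 differed by -0.46 (-0.96 to 0.055) and Ptx3 by 0.60 (-0.037 to 1.23), each with an edgeR adjusted p of 0.735. At 2 weeks the intervals of Saa1 (-0.80 to 1.85), Saa2 (-3.60 to 2.09), Saa3, Orm1 (-1.16 to 0.96) and Orm2 (-0.21 to 1.48) reached past a log2 difference of 1 in size, and at 6 weeks those of Saa1, Saa3, Orm1, Orm2 and Ptx3 did so. A difference of that size between the doses was thus not excluded for them, and Saa2 was at 0 in both 65 Gy libraries of 6 weeks.

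The controls of the 2 times were compared as a background for time. None of the 9 members was called with edgeR, DESeq2 or the exact test, and edgeR called 0.576% of all genes. With edgeR 4 members, Orm2, Lrg1, Hp and Lbp, had an unadjusted p under 0.05. Orm2 was higher at 6 weeks, with 0, 4 and 3 counts against 0 in the controls of 2 weeks (edgeR adjusted p = 0.132). Lrg1 was lower at 6 weeks by a log2 difference of -0.68 (SE 0.22, edgeR adjusted p = 0.144), Hp by -0.31 (SE 0.13, adjusted p = 0.255) and Lbp by -0.27 (SE 0.12, adjusted p = 0.295). Saa3, which is not among these 4, differed by -1.50 (SE 0.72, adjusted p = 0.338).

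The effect of a dose at 6 weeks was then set against its effect at 2 weeks with an interaction term. With edgeR 0 members were called for 75 Gy and 0 for 65 Gy, DESeq2 called 0 in both, and 2 and 3 members had an unadjusted p under 0.05. The test called 0.254% of all genes for 75 Gy and 0.0136% for 65 Gy. For Ptx3 the log2 difference was -0.87 (SE 0.38) for 75 Gy and -1.24 (SE 0.41) for 65 Gy, at edgeR adjusted p of 0.281 and 0.452. For Lrg1 it was 0.26 (SE 0.31) and 0.92 (SE 0.32), at adjusted p of 0.703 and 0.498. For Saa3 it was -0.29 (SE 0.89) and -0.45 (SE 0.91), at adjusted p of 0.900 and 0.910. Orm2 could not be given a size, because the controls of 2 weeks were at 0 counts and those of 6 weeks at 0, 4 and 3. Its edgeR adjusted p was 0.113 for 75 Gy and 0.372 for 65 Gy. Without control 3135, which was at 0 counts for Orm2, the 75 Gy value of Orm2 fell to an adjusted p of 0.0299 and the count of called members became 1. Values set by so few control counts do not decide whether the effect on Orm2 differed between the times.

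**Figure D4:**
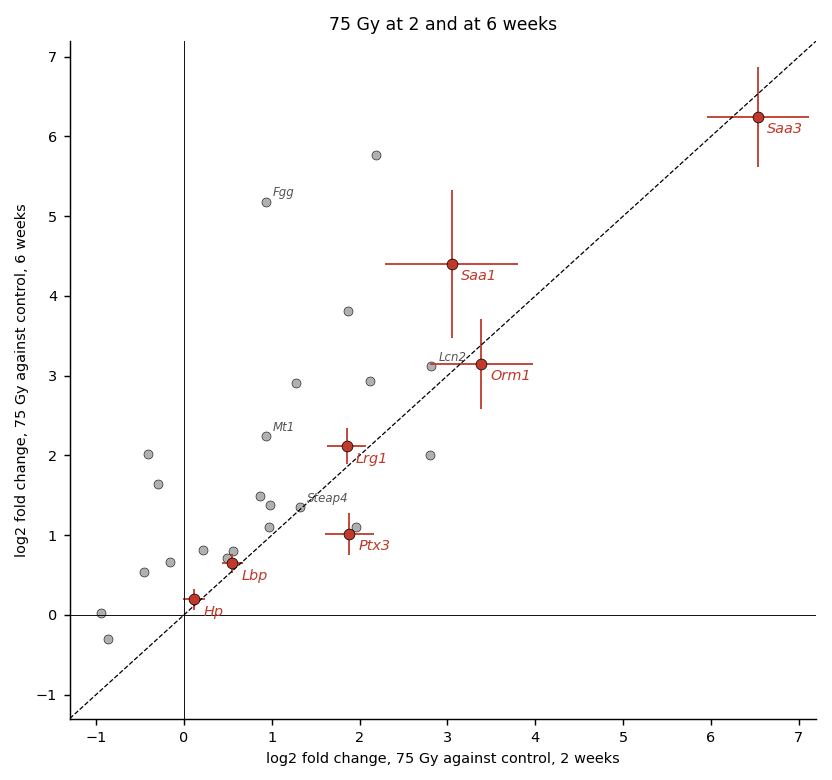
Log2 fold change of 75 Gy against control at 2 weeks (horizontal) and at 6 weeks (vertical) for 7 members (red, bars of 1 SE) and 22 other acute-phase genes (grey, of which those described are named), with a dashed line of equal values. Saa2, Orm2 and genes at 0 counts in controls are left out; Saa3 lies at 6.53 and 6.24, and Fgg stands above the line at 0.93 and 5.18.

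The gene lists that follow were chosen with earlier results of these data known. Genes named from them are called genes with the smallest p, so their p-values describe these data and are no independent test. Other genes that rise in the hepatic acute-phase response were counted for comparison, from a list of 28 of which 24 were tested. Of these 9 were called higher at 75 Gy and 8 at 65 Gy at 2 weeks, and 17 and 12 at 6 weeks, with none called lower. Their median log2 fold change was 0.95 and 0.89 at 2 weeks and 1.57 and 1.20 at 6 weeks. Of all genes tested, 75 Gy and 65 Gy had 5.67% and 3.47% called higher at 2 weeks and 7.28% and 4.34% at 6 weeks. The shares called lower were 2.07% and 0.88% at 2 weeks and 3.13% and 0.943% at 6 weeks. Counts from this list and from those below stand beside these shares. Lcn2, which binds bacterial siderophores, was at 85.3 to 176 CPM in controls and 784 to 992 CPM in irradiated libraries of 2 weeks, and its log2 fold change was 2.81 (SE 0.20) for 75 Gy (edgeR adjusted p = 7.6e-07). Steap4, a metalloreductase induced by cytokines, changed by 1.32 (SE 0.14, adjusted p = 3.3e-05) in the same comparison. Fgg, the gamma chain of fibrinogen, rose at 6 weeks, from 0.178 to 0.908 CPM in controls to 18.2 to 31.3 CPM in irradiated libraries. Its effect at 75 Gy was larger at 6 than at 2 weeks by 4.25 (SE 0.71, edgeR adjusted p = 0.0194). The Fgg controls of 2 weeks stood higher, at 0.667 to 3.59 CPM, so part of that difference lies in the controls. Mt1, a metal-binding metallothionein, changed by 2.24 (SE 0.24) for 75 Gy at 6 weeks with an adjusted p of 2.0e-05. At 2 weeks its value was 0.93 (SE 0.23), which was not called (adjusted p = 0.0103).

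Another list held 10 genes that fall in the hepatic response, 6 of them tested, and here none was called lower after irradiation. At 75 Gy 1 was called higher at 2 weeks and 4 at 6 weeks, and at 65 Gy 0 and 2. Of the called genes, Ahsg, Alb and Apoa2 are also among the hepatocyte markers below, which summed to at most 5.86 CPM in any library. The calls of these genes are thus counted in both lists. Igf1, a growth factor also made by macrophages and fibroblasts, was higher after 75 Gy by 1.56 on the log2 scale at 2 weeks (SE 0.12, edgeR adjusted p = 2.1e-06). At 6 weeks it was higher by 2.52 (SE 0.13, adjusted p = 2.6e-08). In controls Igf1 was itself lower at 6 than at 2 weeks by -1.27 (SE 0.13, adjusted p = 0.00015).

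Of the cytokines that induce acute-phase genes, 8 of the 10 listed were tested, and 4 were called higher at 75 Gy and 3 at 65 Gy at 2 weeks and 3 at each dose at 6 weeks, with none lower. Il6 stood at 0.278 to 1.36 CPM in controls and 2.15 to 6.60 CPM in irradiated libraries of 2 weeks, a log2 fold change of 2.88 (SE 0.56, edgeR adjusted p = 0.0022) for 75 Gy, and of 3.70 (SE 0.56, adjusted p = 0.00022) at 6 weeks. Lif, an interleukin-6 family cytokine, changed by 2.35 (SE 0.33) and 3.16 (SE 0.35) in these comparisons, with adjusted p of 0.00026 and 2.1e-05. Tnf changed by 1.97 (SE 0.24, adjusted p = 7.7e-05) at 2 weeks but its 0.84 (SE 0.24) at 6 weeks lay below the call limit, at an adjusted p of 0.0129. Il1a changed by 1.28 (SE 0.20, adjusted p = 0.00049) at 2 weeks. Among receptors and transcription factors of these pathways 2 of 17 tested were called in each comparison, both higher. The list's median log2 fold change was -0.014 and 0.0029 at 2 weeks and -0.11 and 0.0089 at 6 weeks for 75 Gy and 65 Gy. Over all genes it was 0.00084, -0.0085, 0.040 and 0.0081, so the count is not read as a trait of this list. Socs3, a feedback inhibitor that STAT3 induces, was higher by 1.22 (SE 0.18) after 75 Gy at 2 weeks and by 1.42 (SE 0.18) at 6 weeks, at adjusted p of 0.00032 and 6.2e-05. Hnf4a, a hepatocyte and gut epithelial factor, was the other gene of this list called higher, at 0.236 to 1.17 CPM in irradiated libraries. It is also among the hepatocyte markers below, so its calls are counted in both lists.

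Receptors and partners of the proteins moved both ways, with 5 called higher and 1 lower of 20 tested at 75 Gy and 5 and 2 at 65 Gy at 2 weeks, and 5 and 2 at 75 Gy and 4 and 1 at 65 Gy at 6 weeks. Cd14, which takes lipopolysaccharide from LBP, rose by 1.20 (SE 0.21) on the log2 scale for 75 Gy at 2 weeks and by 1.97 (SE 0.22) at 6 weeks, at edgeR adjusted p of 0.0011 and 2.0e-05. Hmox1, which breaks down the haem that haptoglobin helps to clear, rose by 2.16 (SE 0.24) and 1.22 (SE 0.23), at adjusted p of 3.5e-05 and 0.0011. Fcgr3, an Fc receptor to which pentraxins bind, rose by 1.74 (SE 0.28) and 2.28 (SE 0.28), at adjusted p of 0.00058 and 5.2e-05. Eng, the endothelial TGF-beta co-receptor with which LRG1 acts, fell by 1.14 (SE 0.19) and 1.46 (SE 0.19), at adjusted p of 0.00084 and 8.4e-05.

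Marker levels of cell types that could hold these transcripts moved in both directions, and their part in the results was not tested. Counts of called markers stand beside the shares of all genes given with the other acute-phase genes. In bulk lung, fewer or more cells of a type and less or more RNA per cell cannot be told apart. Alveolar type 2 cells, which define lung, were well represented, with 7 markers summing to 18357 to 33869 CPM in every library. Hepatocyte markers were near 0 throughout: over all 17 libraries Alb lay between 0.551 and 1.90 CPM, Ttr did not exceed 0.0365 CPM and the 8 markers summed to at most 5.86 CPM, while Hp alone lay between 622 and 1036 CPM. Of the 5 hepatocyte markers tested 1 was called higher at each dose at 2 weeks, and 4 and 2 at 75 Gy and 65 Gy at 6 weeks. Neutrophils store haptoglobin and PTX3 in their granules, and of their markers 6 of 10 were called lower at each dose at 2 weeks and 4 and 2 at 6 weeks. Their summed level was 459 to 737 CPM in controls of 2 weeks and 161 to 270.1 CPM in irradiated libraries of 2 weeks, and 494 to 831 CPM and 164 to 384 CPM at 6 weeks. Macrophage markers were higher, with 4 of 6 called higher at each dose at 2 weeks and 5 of 6 at 6 weeks, and sums of 4859 to 10299 CPM in controls, 8402 to 9181 CPM after 65 Gy and 11425 to 13387 CPM after 75 Gy at 2 weeks. At 6 weeks these were 4244 to 4722, 10744 to 12179 and 13175 to 14341 CPM.

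Adipocytes are a known source of Saa3 in the mouse, and their 7 markers summed to 87.3 to 97.7 CPM in controls of 2 weeks, 15.9 to 161 CPM after 65 Gy and 8.53 to 27.9 CPM after 75 Gy. Library 3129, the highest of the 65 Gy group for 6 of the members, was also its highest for these markers, at 161 CPM against 15.9 and 17.4 CPM. Library 3134, the highest for Saa3 at 131 CPM, held 9.04 CPM of adipocyte markers. At 6 weeks the marker sums of 26.4 to 117 CPM in controls, 49.98 to 59.9 CPM after 65 Gy and 80.3 to 101 CPM after 75 Gy overlapped. Without library 3129 the log2 fold change of Saa3 at 65 Gy and 2 weeks was 6.00, and 5 members were called instead of 6. The lost call was that of Saa1, which was lost without any one of the 6 libraries compared and is not particular to 3129. Fibroblast markers summed to 1994 to 3101 CPM in controls, 2422 to 3187 CPM after 65 Gy and 2676 to 3178 CPM after 75 Gy at 2 weeks, which overlapped, and to 1416 to 1728, 2014 to 2215 and 1920 to 2394 CPM at 6 weeks, which did not overlap with the controls. Airway markers summed to 14018 to 17441 CPM in controls of 2 weeks, 8548 to 11729 CPM after 65 Gy and 5719 to 11828 CPM after 75 Gy, and at 6 weeks to 14851 to 17703, 11377 to 12248 and 8973 to 12252 CPM, with every irradiated library below every control of its time. Capillary endothelial markers summed to 2719.9 to 3076, 1917 to 1957 and 1131 to 2179.6 CPM at 2 weeks and 2861 to 2959, 1599 to 1763 and 1219 to 1481 CPM at 6 weeks in the same order, again without overlap. Of the 5 capillary markers 1 was called lower at each dose at 2 weeks, and 3 at 75 Gy and 0 at 65 Gy at 6 weeks. Of the 3 airway markers 0 were called in any of these comparisons. Their median log2 fold change was 0.075 and -0.49 at 2 weeks and 0.40 and 0.30 at 6 weeks, for 75 Gy and 65 Gy. The lower airway sums were thus not shared by most of these markers at 75 Gy or at 6 weeks. Mesothelial markers were called lower only at 65 Gy and 6 weeks (3 of 5), and 1 adipocyte marker was called lower at 75 Gy and 2 weeks.

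Over the 6 group means of log2 CPM, each centred on the gene's own mean, Cxcl9 followed Saa3 most closely among 14479 genes, with a root mean square difference of 0.76. The next were Gpnmb (0.91), Cxcl10 (1.05), Stra6l (1.14) and Ccl2 (1.19), of which Cxcl9 and Cxcl10 are interferon-induced chemokines and Ccl2 attracts monocytes. Their differences were large beside those of other members, such as 0.17 between Lrg1 and Tgm1, but the measure grows with the range of a gene. Group means of Saa3 ran from -1.67 to 5.97 log2 CPM and those of Lrg1 from 5.54 to 8.13. The differences thus do not rank how closely genes followed different members. Group means share libraries and depth, and the likeness is a description without a test. For the sparse members Saa1, Saa2 and Orm2 the nearest gene changed with the prior count added before taking logarithms, from Ms4a6d, Kif2c and Msr1 with a prior count of 2 to AA467197, Ces2e and Gpnmb with 0.5. It remained Psrc1 for Orm1, Pgs1 for Hp, Ier5l for Lbp Knstrn for Ptx3 and Tgm1 for Lrg1.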

How the data were processed

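Lung RNA of 17 libraries in 6 groups of dose and time was sequenced as paired reads from poly(A)-selected RNA. Per the study's methods, the authors trimmed reads with Trimmomatic, aligned them to the mouse genome with HISAT2 and assembled transcripts with StringTie, and per the labels the build was GRCm38.p6. The deposited table holds raw counts per gene (whole numbers, no normalization by the authors). The step from StringTie to counts and the handling of strand and of reads with several matches are not given in the sources used here. RNA isolation is described as QIAzol in the methods and as RNeasy in the labels.

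Members were taken by gene symbol, and the members and gene lists were chosen with earlier results of these data known. Counts were analysed with edgeR 4.0.16 in R 4.3.3. All 17 libraries were fitted with 1 coefficient per group, after filterByExpr (minimum count 10, minimum total 15) and TMM scaling, and the quasi-likelihood F test was adjusted by the Benjamini-Hochberg method over 22052 genes. A gene was called at an adjusted p of at most 0.05 and a log2 fold change of at least 1 in size. Named genes were all 9 members, their near-identical relatives Saa4 and Orm3, the genes most like each member over the groups, the nearest tested neighbours, and of each list the called genes with the smallest p, at most 4. Intervals of log2 differences use the t quantile with the degrees of freedom of the quasi-likelihood test. Folds against controls at 0 use a floor of 3 counts over the group, and intervals of count ratios cover counting error only. Total counts were 46764569 to 66797879 per library. Alternatives were DESeq2 1.42.0, the exact test of edgeR, other filters and scalings, and leaving out each of the 17 libraries. The fits were tested on simulated data with 200 changed genes.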

Additional observations from a re-analysis of the deposited data

How the results depend on the processing

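Counts of called members were within 1.5 times the reported ones in 128 recomputed counts and outside that range in 5, and no direction reversed. This covers the counts of called members only. Medians over the members and counts of list genes moved in 112 recomputed values. With genes required to have at least 10 counts in every library, 3 members were called at 75 Gy and 3 at 65 Gy at 2 weeks, and 3 and 2 at 6 weeks, because that filter removes Saa1, Saa2, Orm1 and Orm2 from testing. Leaving out each of the 17 libraries in turn gave 6 members at 75 Gy and 2 weeks, 5 to 6 at 65 Gy and 2 weeks (5 without any one of the libraries compared, the lost call being Saa1), 5 to 7 at 75 Gy and 6 weeks and 4 to 5 at 65 Gy and 6 weeks. For the interaction of time with 75 Gy the range was 0 to 1, the 1 being Orm2 without control 3135, a call that rests on very few control counts. Calls of Saa1 at 65 Gy, of Ptx3 at 75 Gy and 6 weeks and of Saa2 changed with single libraries, as given beside their values, and Saa1 at 65 Gy and 2 weeks was also lost when every gene with at least 1 count was tested. With only the groups compared in the fit, Saa1 at 2 weeks was no longer called at either dose. No paired analysis was possible because the groups have no library number in common. Depth limits Saa1, Saa2 and Orm2, which had at most 64 counts in any library.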
